A study of Saccharomyces cerevisiae with 8 samples.

Results

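Single 80S ribosomes (monosomes) of budding yeast (Saccharomyces cerevisiae) were compared with the mRNA of the same kind of culture, gene by gene, to ask which mRNAs held more or fewer monosome footprints than their abundance. The comparison uses 4 of the 8 libraries of the series, 2 of monosome footprints and 2 of mRNA, and all 6692 gene identifiers of the count table, of which 5336 had enough counts to be tested. The 2 polysome libraries are set beside them. The 2 libraries of footprints from all ribosomes (global) entered the model and are otherwise cited only for mitochondrially encoded genes. Every library came from cells grown at 30 °C in YEPD, a rich glucose medium, which at an OD600 of 0.6 were held for 2 min in 100 ug/ml cycloheximide, a block of elongation. All groups share this drug, and the labels name no strain, mutation or other treatment. Monosome footprints came from the 80S fractions of a gradient, which were then digested with RNase I, and polysome footprints from the heavier fractions digested afterwards. RNA pieces of 26 to 32 nt were kept from these. The mRNA libraries held fragments of 20 to 45 nt of total RNA depleted of rRNA with RiboZero, and no selection for poly(A) is named.

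A ribosome that assembles on an mRNA shields a short stretch of it from RNase, and the sequenced stretch shows where the ribosome stood. Several ribosomes usually follow each other along an mRNA as a polysome. A lone 80S ribosome can be the first to have reached a message, the only one on a short or rarely initiated open reading frame, or one that holds no mRNA and so leaves no footprint. The ratio of footprints to mRNA fragments is the usual measure of how heavily a message is occupied, and here it is taken for the lone ribosomes only.

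Monosome libraries held 4723489 and 6443263 counts, polysome libraries 8686385 and 7494965, and mRNA libraries 933252 and 672928, so the mRNA libraries set the precision for most genes. Pearson's r across genes (log2 of CPM + 1) was 0.994 between the monosome libraries and 0.953 between the mRNA libraries. The labels do not say that the replicates came from separate cultures, so a p-value reflects only how far these libraries scatter, and that scatter may be technical. Levels are given as CPM, each count set against its library's total times a TMM factor, which removes the shift of the bulk of genes between libraries. Fold changes are log2 of monosome over mRNA from edgeR's quasi-likelihood test, and a gene was called at a Benjamini-Hochberg adjusted p under 0.05 over all 5336 genes. A fold change states a gene's share of monosome footprints against its share of mRNA fragments. It does not state how much of an mRNA sits in monosomes.

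Monosome occupancy differed widely between mRNAs of like abundance. Of the genes tested, 2024 (37.9%) were called higher on monosomes than in mRNA and 1857 (34.8%) lower, together 72.7%. At least 2-fold differences were called for 1671 genes higher (31.3%) and 1422 lower (26.6%). In 86.3% of tested genes the 2 monosome values did not overlap the 2 mRNA values. The log2 fold changes had a median of 0.13, with 5% of genes below -3.37 and 5% above 3.43. Their SD was 2.25 over genes, against 2.38 for polysome over mRNA and 0.94 for monosome over polysome. Both footprint comparisons share the mRNA libraries. Scaling decided where 0 lay: with library totals used instead of TMM factors (1.22 and 1.25 for monosomes, 0.691 and 0.769 for mRNA) the median moved by over 0.1, to 0.90, and 3045 genes were called higher and 1214 lower. Fold changes are therefore best read against the median of all genes. Likewise, counts called in the gene lists below are best read against the shares of all genes. These were 37.9% higher and 34.8% lower for monosome over mRNA, 38.3% and 34.6% for polysome over mRNA, and 36.6% and 33.5% for monosome over polysome.

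**Figure D1:**
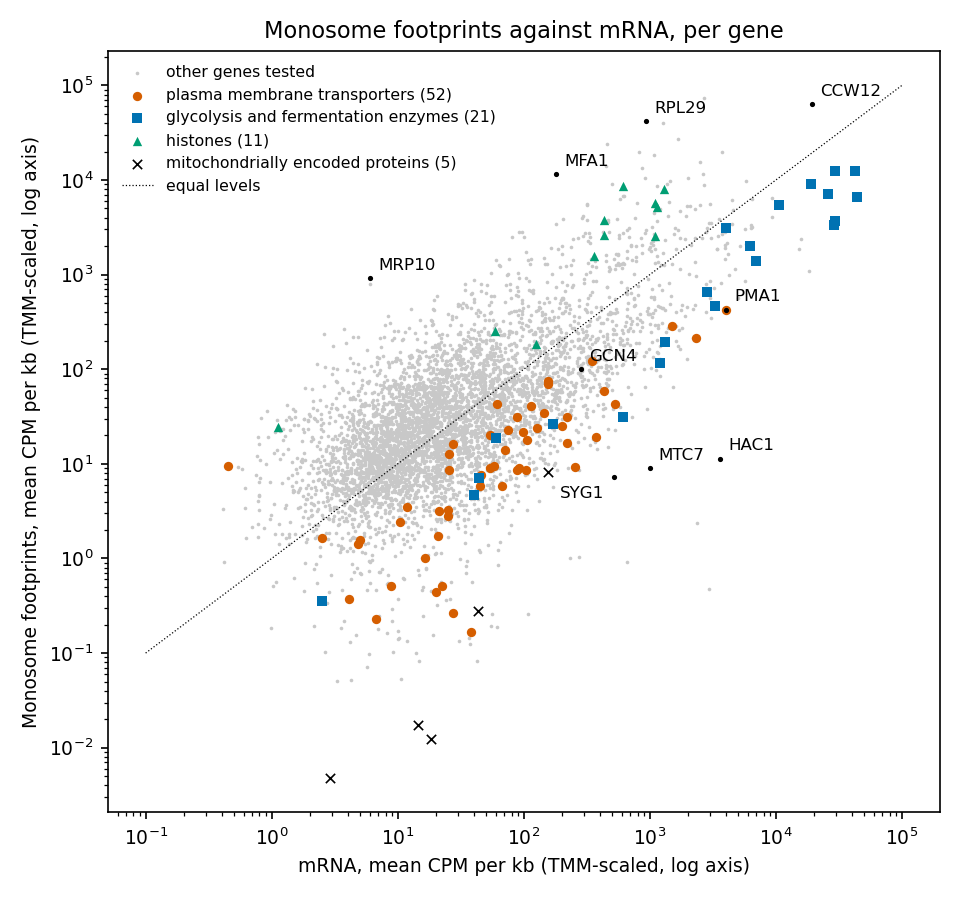
Mean level of each tested gene in monosome footprints (y axis) against mRNA (x axis), in TMM-scaled CPM per kb of gene on log axes, for genes above 0 in both; colours mark 4 gene lists with the number drawn. Plasma membrane transporters and glycolytic enzymes lie below the line of equal levels, all histones lie above it, and HAC1, MTC7 and SYG1 stand far below it.

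Mitochondrially encoded mRNAs were nearly absent from monosomes. The mitochondrial genome encodes its own small set of respiratory chain subunits, which are made by mitochondrial ribosomes. Summed over the 28 mitochondrially encoded identifiers, the monosome libraries held 10 and 25 counts, the polysome libraries 7 and 6, and the far shallower mRNA libraries 422 and 307. The global footprint libraries, with only 749057 and 552992 counts in all, held 88 and 72, so the near absence was seen in the gradient fractions and not there. All 13 of the 28 identifiers that could be tested were lower on monosomes, and 7 of them had no monosome count at all. COX3, which encodes a core subunit of cytochrome c oxidase, had 0 and 0 monosome counts against 34 and 33 mRNA counts, at least 130.4-fold lower when 3 counts per library stand for 0. COB, which encodes cytochrome b, had 1 and 0 monosome counts and 93 and 61 mRNA counts. OLI1, which encodes the membrane ring of ATP synthase, had most of the monosome counts of the group, 7 and 21, against 21 and 20 in mRNA (-4.11 on the log2 scale, SE 0.41, adjusted p = 1.29e-15 in edgeR). In polysomes OLI1 had 0 and 0 counts.

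Several nuclear identifiers that share their position with a non-coding RNA gene were as low on monosomes. YGL088W overlaps the small nucleolar RNA gene SNR10 in the R64 reference table, and it had 0 and 0 monosome counts against 205 and 175 mRNA counts, at least 734-fold lower. YNL042W-B and YOR072W-B each overlap a tRNA gene, YNCN0009W and SUF11. They had 0 and 2 and 3 and 2 monosome counts against 426 and 437 and 252 and 197 mRNA counts. Of the 72 tested identifiers without a match in that table, 52 were lower on monosomes and 4 higher. They held 4.13% and 7.35% of mRNA counts but only 0.0388% and 0.0423% of monosome counts. The largest among them, YHR180W-A, had 0 and 0 monosome counts against 241 and 429 mRNA counts, and YMR013W-A had 0 and 0 against 174 and 91. YDR445C, chosen after its values were seen, alone had 26535 and 28193 mRNA counts, with 61 and 74 counts in monosomes. The only such identifier that met the conditions for a higher gene was YFR034W-A, with 196 and 313 monosome and 8 and 10 mRNA counts (1.24 on the log2 scale, SE 0.32, adjusted p = 0.000307 in edgeR).

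HAC1 had the largest deficit of the nuclear genes that overlap no other gene and averaged at least 50 counts over the 4 libraries. It encodes the transcription factor of the unfolded protein response, and its unspliced mRNA is held untranslated until Ire1 removes the intron. HAC1 (chromosome VI, 75179 to 76147, R64) was at 11.7 and 10.3 CPM in monosomes against 3115 and 3834 CPM in mRNA (-8.31 on the log2 scale, SE 0.17, adjusted p = 3.68e-67 in edgeR). Its monosome values rest on 67 and 83 counts. The polysome values were 10.5 and 11.7 CPM, and the difference between monosomes and polysomes was -0.02 with an SE of 0.20 (edgeR adjusted p = 0.93). MTC7 (chromosome V, 86179 to 86598), a gene of 420 nt that lies 29 nt from HYP2, was at 3.49 and 4.09 CPM in monosomes and 342 and 507 CPM in mRNA (-6.76 on the log2 scale, SE 0.18, adjusted p = 4.92e-57 in edgeR). Its polysome values of 3.27 and 3.90 CPM lay beside these. The strand setting of the counting is not given in the sources used here, so reads of close or overlapping neighbours cannot be told apart.

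The other 7 of the 12 matched genes with the largest deficits on monosomes at this mean count ran from 2061 to 4536 nt in length. SYG1, a plasma membrane protein of the SPX family, was at 19.9 and 19.7 CPM in monosomes against 1478 and 1343 CPM in mRNA (-6.16 on the log2 scale, SE 0.13, adjusted p = 1.21e-64 in edgeR). BRE4 (-5.65), the weak-acid efflux pump gene PDR12 (-5.48), the iron reductase relative FRE8 (-5.37) and the cadmium-transporting ATPase gene PCA1 (-5.24) followed. MNL1, for an endoplasmic reticulum mannosidase of glycoprotein disposal (-5.10), and PLB3, for a phospholipase of the cell surface (-5.01), closed the 12 largest. Each of these 7 was also lower in polysomes than in mRNA, from -4.56 for PDR12 to -7.47 for BRE4. MNL1, PLB3 and BRE4 had more in monosomes than in polysomes, by 1.35, 1.36 and 1.82, whereas PDR12 had less (-0.92), all 4 past the threshold.

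**Figure D2:**
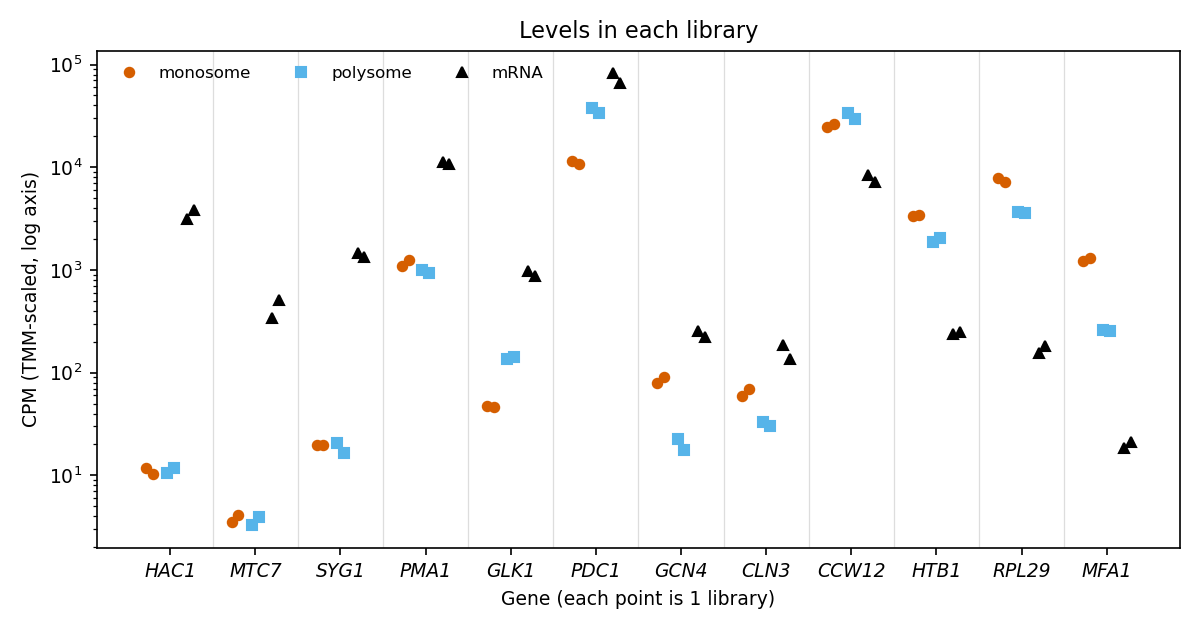
TMM-scaled CPM (log axis) of 12 genes in each library, with 1 point per library: monosome left, polysome in the middle, mRNA right. The 2 points of a group lie close together; HAC1, MTC7 and SYG1 are low in both footprint fractions, GCN4 and CLN3 lie higher in monosomes than in polysomes, and HTB1, RPL29 and MFA1 lie above their mRNA in both.

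Plasma membrane transporters, the permeases and pumps that take up sugars, amino acids and ions, were under-represented on monosomes almost as a whole. Of 53 tested members of 60, 50 were lower, 1 was higher and 2 did not pass, and the median was -2.70 against 0.13 for all genes. PMA1, the proton pump that energises the membrane, was at 1101 and 1256 CPM in monosomes against 11308 and 10746 CPM in mRNA (-3.23 on the log2 scale, SE 0.14, adjusted p = 5.82e-40 in edgeR). The zinc transporter gene ZRT2 was at 10.6 and 12.9 CPM against 309 and 335 CPM (-4.75 on the log2 scale, SE 0.15, adjusted p = 1.3e-49 in edgeR). ITR1, for myo-inositol uptake, was at 31.5 and 36.3 CPM against 702 and 602 CPM (-4.26). In each of these 3 genes the monosome values lay far below both mRNA values. The exception was HXT8, a hexose transporter gene, with 102 and 117 monosome counts but only 1 and 0 mRNA counts, a ratio of 18.4 (95% exact interval 3.27 to 730.3) that covers counting error only.

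Polysomes held still less of the transporter messages. Of the same 53, 52 were lower in polysomes than in mRNA, beside 34.6% of all genes called lower there and 38.3% higher, with a median of -3.28. Set against each other directly, 29 transporters were higher in monosomes than in polysomes and 2 lower, where 36.6% of all genes were higher (1954) and 33.5% lower (1790). With library totals that split of all genes was 3030 to 867, around a median of 0.50. ZRT2 was at 4.18 and 4.34 CPM in polysomes, so its monosome level exceeded its polysome level (1.48, edgeR adjusted p = 3.1e-09). PMA1 at 989 and 934 CPM in polysomes differed less (0.29, edgeR adjusted p = 0.0336).

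Enzymes of protein glycosylation in the endoplasmic reticulum, the PMT mannosyltransferases and ALG enzymes, were low on monosomes as well. This list was drawn up after the values were seen, and 13 of its 18 members were lower on monosomes, 4 higher, with a median of -2.44. The shares over all tested genes were 34.8% lower and 37.9% higher. PMT1 was at 37.3 and 32.9 CPM in monosomes against 949 and 925 CPM in mRNA (-4.75 on the log2 scale, SE 0.12, adjusted p = 2.91e-58 in edgeR), and PMT4 and ALG6 had log2 fold changes of -4.39 and -4.64. PMT2 was at 87.0 and 87.2 CPM in monosomes, 47.5 and 48.9 CPM in polysomes and 969 and 959.9 CPM in mRNA, so it was lower in both fractions (-3.47 and -4.32). Of the 18, 12 were higher in monosomes than in polysomes and none was lower by edgeR's adjusted p, beside 36.6% and 33.5% of all genes.

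Cell wall proteins were mostly lower on monosomes, with a few exceptions. Of 34 tested, 22 were lower and 3 higher, with a median of -1.31. Over all tested genes 34.8% were lower and 37.9% higher, with a median of 0.13. UTR2, a chitin crosslinking enzyme, was at 98.1 and 100.2 CPM in monosomes against 559 and 552 CPM in mRNA (-2.48 on the log2 scale, SE 0.11, adjusted p = 6.4e-38 in edgeR). GAS5, for a glucan-elongating enzyme, was also lower (-2.05). At the other end CWP2, a short mannoprotein gene of 279 nt, was at 5376 and 5681 CPM against 1214 and 888 CPM (2.39 on the log2 scale, SE 0.14, adjusted p = 5.34e-29 in edgeR), and this turned to -0.43 when length was taken out as described below. With such offsets none of the 34 was higher and 30 were lower.

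Glycolytic enzymes, which break glucose down to pyruvate, had few monosome footprints for their mRNA and more polysome footprints. All 21 enzymes of glycolysis and fermentation were lower on monosomes, with a median of -2.65 and a range of -4.30 to -0.38. GLK1, a glucokinase that overlaps YCL042W, was at 47.8 and 46.5 CPM in monosomes against 981 and 867 CPM in mRNA (-4.30 on the log2 scale, SE 0.12, adjusted p = 1.78e-55 in edgeR). The enolase gene ENO1 was at 153 and 153 CPM against 1798 and 1345 CPM (-3.37). PDC1, the main pyruvate decarboxylase, was at 11423 and 10756 CPM against 82167 and 66636 CPM (-2.75 on the log2 scale, SE 0.16, adjusted p = 1.33e-30 in edgeR). The member nearest to 0 was TPI1, triose phosphate isomerase, at 2329 and 2288 CPM against 3159.8 and 2858 CPM (-0.38 on the log2 scale, SE 0.13, adjusted p = 0.00619 in edgeR), and it turned positive with library totals (0.38). Without mRNA replicate 1 TPI1 came to -0.20 and did not pass (edgeR adjusted p = 0.255), nor did it in a fit of the 4 libraries alone (-0.28, edgeR adjusted p = 0.0527).

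In polysomes the same 21 enzymes had a median of -1.11 against mRNA, 15 lower and 2 higher. Set directly against polysomes, 20 of 21 were lower in monosomes and none higher by edgeR's adjusted p, with a median of -1.39. PDC1 was at 37737 and 33968 CPM in polysomes, -1.69 in monosome over polysome with an SE of 0.15. ENO1 was at 568 and 525 CPM there (-1.84). TPI1 was at 6665 and 5940.1 CPM in polysomes, above its mRNA (1.07) while its monosome level lay below it.

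Amino acid biosynthesis enzymes were lower on monosomes in 44 of 55 tested cases and higher in 3, with a median of -1.48 (-0.80 in polysomes). Tested genes with at least 300 mRNA counts in both libraries together had a similar split, 487 of 616 lower and 95 higher (median -1.54). That class was set by the same mRNA libraries as the ratio, and the list was not matched to it. HIS4, a histidine pathway enzyme, was at 89.2 and 94.1 CPM in monosomes against 1229.8 and 1223 CPM in mRNA (-3.74 on the log2 scale, SE 0.12, adjusted p = 4.09e-50 in edgeR). ARO1, the fused enzyme of the shikimate pathway, had a similar value (-3.73). The short genes ARO7, for chorismate mutase, and SER2, for the last step of serine synthesis, went the other way (1.26 and 1.28). ARO7 had 11 and 10 mRNA counts, and with length offsets it did not pass (0.33, edgeR adjusted p = 0.346). In polysomes ARO7 stood higher still (2.44), and 44 of the 55 were lower in monosomes than in polysomes.

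Chaperones, which fold or refold proteins, were lower in 30 of 47 cases and higher in 12 (median -0.96). PDI1, for the disulfide isomerase of the endoplasmic reticulum, was at 91.3 and 81.9 CPM in monosomes against 1121 and 1089.5 CPM in mRNA (-3.68 on the log2 scale, SE 0.12, adjusted p = 8.27e-51 in edgeR). SSB2, a ribosome-bound Hsp70 with a near-identical copy, was at 1061 and 1002 CPM against 10583 and 7834 CPM (-3.16). The prefoldin subunit YKE2, a gene of 345 nt, had 662 and 696 monosome counts against 1 and 2 mRNA counts, a ratio of 38.0 (95% exact interval 13.0 to 185). In polysomes the chaperone median was -0.08, or 0.23 with library totals, and 35 of 47 were lower in monosomes than in polysomes.

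Translation factors were found on both sides. Of 41, 13 were higher and 23 lower on monosomes, with a median of -0.42 that became 0.35 with library totals. The elongation factor gene YEF3 was at 3594 and 3177 CPM in monosomes, 8784 and 7585 CPM in polysomes and 63153 and 51794 CPM in mRNA (-4.09 on the log2 scale, SE 0.16, adjusted p = 7.75e-43 in edgeR). The 2 genes of elongation factor eEF2, EFT2 and EFT1, were lower as well (-4.62 and -3.89), although their near-identical sequences leave the split of reads between them uncertain. The short initiation factor genes TIF11, for eIF1A, and SUI1, for eIF1, were higher. TIF11 was at 481 and 423 CPM in monosomes against 37.3 and 31.0 CPM in mRNA (3.71 on the log2 scale, SE 0.20, adjusted p = 4.45e-33 in edgeR). SUI1 was at 448 and 477 CPM against 80.7 and 81.3 CPM (2.51), and its value was -0.03 with length offsets (edgeR adjusted p = 0.889). Of the 41, 35 were lower in monosomes than in polysomes.

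**Figure D3:**
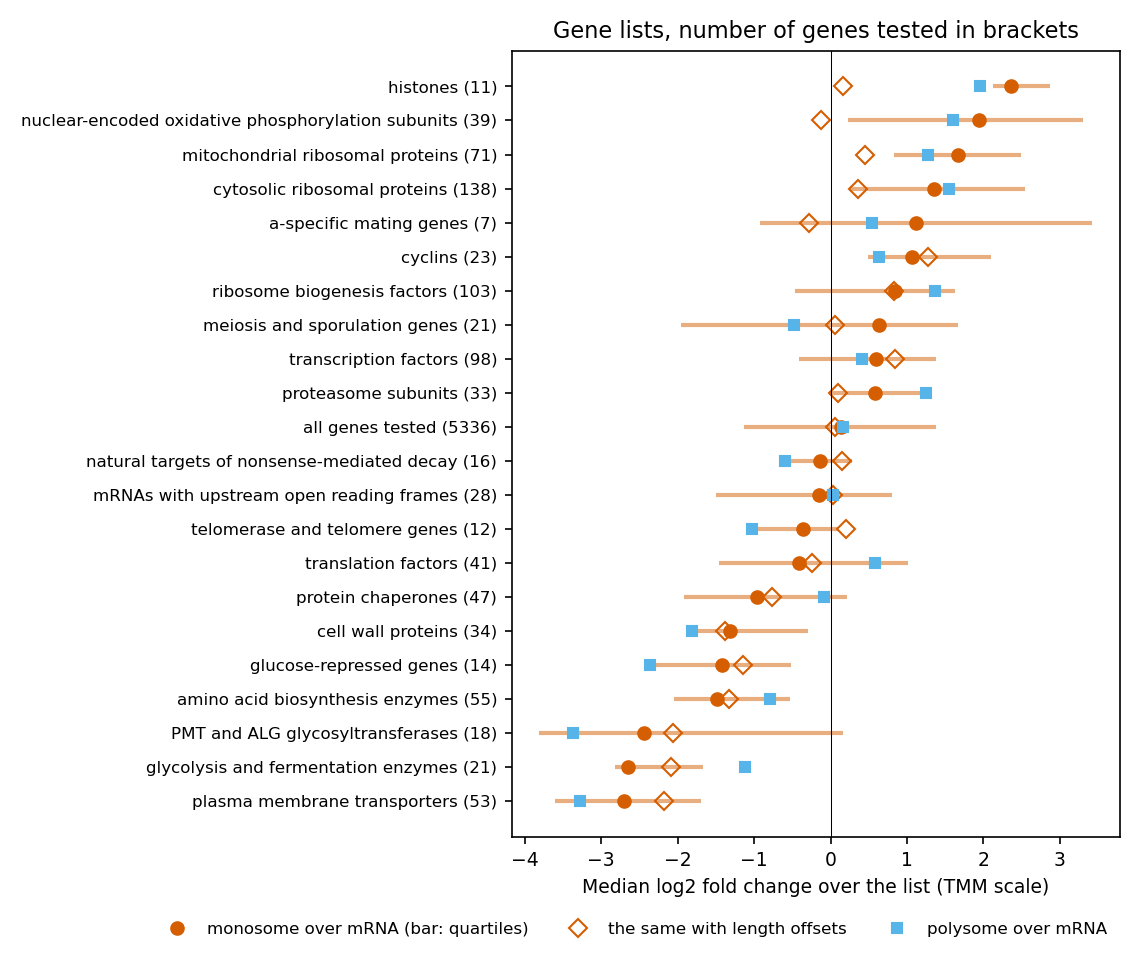
Median log2 fold change over the tested members of each gene list with at least 5 tested, without the mitochondrially encoded proteins, whose median of -9.45 lies off the axis (x axis, TMM scale): filled circles for monosome over mRNA with bars from the lower to the upper quartile, open diamonds for the same with length offsets, squares for polysome over mRNA. Of the lists drawn, transporters and glycolytic enzymes have the lowest monosome medians, -2.70 and -2.65, and histones the highest, 2.36, which falls to 0.16 with length offsets.

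Gene length went with monosome occupancy over its whole range. The 161 tested genes of at most 300 nt had a median log2 fold change of 3.22, with 141 higher and 11 lower. The 638 genes of over 300 to 600 nt had a median of 1.95, with 489 higher and 46 lower. The 1689 genes of over 600 to 1200 nt had 0.69, the 1935 genes of over 1200 to 2400 nt had -0.36, and the 841 genes beyond 2400 nt had -0.72, with 77 higher and 465 lower. Lengths are those of the R64 table and include introns. With library totals the medians were 3.98, 2.72, 1.46, 0.41 and 0.05 in the same order, so the sign of the longest 2 classes rests on the scaling while the order of the classes does not.

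The decline was steep in monosomes and shallow in mRNA. Over the classes from shortest to longest, median levels were 281, 107, 45.2, 16.0 and 8.25 CPM per kb in monosome replicate 1, and 249.9, 103, 44.3, 16.3 and 8.49 in replicate 2. In mRNA they were 39.0, 28.3, 26.7, 20.2 and 13.0 CPM per kb in replicate 1, and 43.0, 28.0, 27.3, 20.2 and 14.2 in replicate 2. Polysome over mRNA declined too, with medians of 2.18, 1.74, 0.62, -0.37 and -0.58. Monosome over polysome, where the mRNA libraries do not enter, had medians of 1.12, 0.33, -0.01, 0.02 and -0.18, so length separated the fractions mainly among the genes of at most 300 nt. The part of library making in these trends was not tested.

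**Figure D4:**
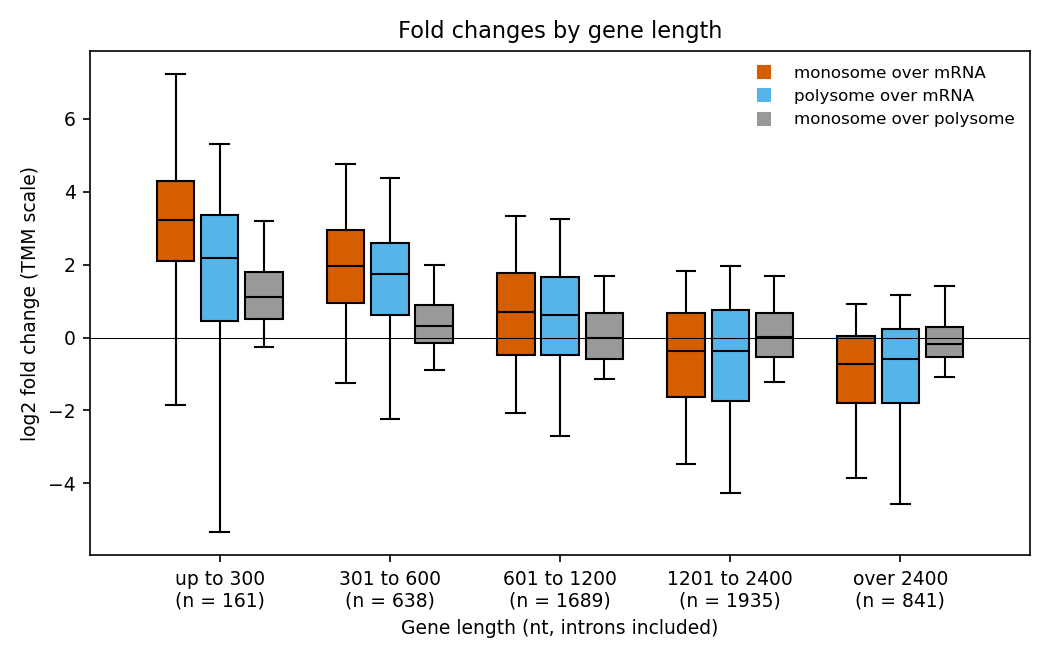
Log2 fold changes (y axis, TMM scale) by class of gene length (x axis, nt, with the number of genes), for monosome over mRNA, polysome over mRNA and monosome over polysome. Boxes span the quartiles with a line at the median and whiskers from 5% to 95% of genes; the medians of both footprint fractions over mRNA decline from the shortest to the longest class.

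The largest excess among well-measured genes was found mostly in short ones. The ranking took matched genes that overlap no other gene and had at least 10 counts in each of the 4 libraries. The mating pheromone gene MFA1 of 111 nt came first of its 12 largest. MFA1 was at 1229.6 and 1315 CPM in monosomes, 258 and 257 CPM in polysomes and 18.6 and 21.3 CPM in mRNA (6.002 on the log2 scale, SE 0.20, adjusted p = 6.93e-48 in edgeR), with 12 and 11 mRNA counts. RPL29, for a small protein of the large subunit, was at 7842 and 7173 CPM in monosomes against 154 and 180.0 CPM in mRNA (5.50 on the log2 scale, SE 0.17, adjusted p = 6.72e-51 in edgeR). Both groups lay far apart in each of these genes. RPS29B (5.70) lay between these 2 genes, and RPL41A (4.99), RPS29A (4.97), RPS30A (4.92) and RPS30B (4.65) followed, all 5 ribosomal protein genes with near-identical copies. The rest of these 12 were MFA2 (4.58), YDR524C-B (4.77), the vacuolar pump subunit gene VMA10 (4.28), HOR7 (4.27) and PMP3, a small membrane protein gene (4.17).

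With length offsets, which take each library's own trend with gene length out of the fit, RPL29 kept 1.97 and MFA1 1.73, both past the threshold. RPL41A, of 78 nt, came to 0.16 (edgeR adjusted p = 0.451) and MFA2 to 0.39 (edgeR adjusted p = 0.0506). Over all genes with a length, 1685 were called higher and 1822 lower in that fit. The offsets remove any biology that goes with length as well as any effect of library making.

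For 47 tested genes no mRNA fragment was counted in either library, and 43 of these were called higher. Their median length was 495 nt, against 1266 nt over all tested genes. They include the 12 largest fitted differences, for which only a bound can be given. POP7, for a subunit of RNase P and MRP, had 231 and 276 monosome counts, at least 7.11-fold higher when 3 counts per library stand for 0 mRNA counts. CGR1, a ribosome assembly factor gene, had 183 and 259 monosome counts (at least 6.11-fold) and ATG8, the autophagy ubiquitin-like protein gene, 112 and 141 (at least 3.53-fold). FMC1, MCM16, MSS2, ATG14, DAD2, YPR145C-A, VPS51, ELC1 and BLS1 had bounds between 3.13-fold for BLS1 and 5.71-fold for FMC1. A further 258 tested genes had 1 to 3 mRNA counts in both libraries together. MRP10, a mitochondrial ribosomal protein gene of 288 nt, had 1537 and 2131 monosome counts against 1 and 1 mRNA counts, a ratio of 154 (95% exact interval 42.6 to 1273). These genes entered the test through their footprints, so a count of them higher on monosomes says nothing about the class.

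Ribosomal protein genes were over-represented in both ribosome fractions. Of 138 cytosolic ribosomal protein genes, 102 were higher on monosomes and 22 lower (median 1.35), and in polysomes 111 were higher and 12 lower (median 1.55). Their values ran from -3.03 to 5.70. RPL3, a core protein of the peptidyl transferase region, was at 2865 and 2624 CPM in monosomes against 19649.8 and 16939 CPM in mRNA (-2.74 on the log2 scale, SE 0.14, adjusted p = 1.72e-33 in edgeR). RPL8B and RPL40A, large subunit proteins that were among the genes nearest to 0 of the 200 with most monosome counts, had log2 fold changes of 0.03 and 0.05, neither past the threshold. With length offsets they came to -0.90 and -0.74, and with library totals to 0.79 and 0.81. RPL40A was at 1125 and 968 CPM in monosomes against 1020.1 and 1008 CPM in mRNA. Against polysomes, 64 of the 138 were lower in monosomes and 30 higher, and their median of -0.20 became 0.25 under library totals. With length offsets the median against mRNA was 0.36, with 73 higher and 43 lower.

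Mitochondrial ribosomal protein genes, which are nuclear and translated in the cytosol, were higher on monosomes in 56 of 71 cases and lower in 2 (median 1.67). MRP49 had 611 and 845 monosome counts against 0 and 4 in mRNA (4.92). The 2 lower members were RSM7, at 48.3 and 49.3 CPM in monosomes against 272 and 254 CPM in mRNA (-2.43 on the log2 scale, SE 0.13, adjusted p = 4.37e-32 in edgeR), and MRPS12 (-0.94, and -0.17 with library totals, not past the threshold). Against polysomes 42 were higher in monosomes and 7 lower. With length offsets the median against mRNA was 0.44, with 26 higher and 10 lower.

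Nuclear genes for oxidative phosphorylation had a median of 1.94, or 1.74 with the 1 member at 0 mRNA counts put at its bound, with 24 of 39 higher and 7 lower. The small ATP synthase subunit gene ATP19 had 704 and 1011 monosome counts against 3 and 2 in mRNA (4.84), while the long genes SDH1, for the flavoprotein of succinate dehydrogenase, and ATP1, for the catalytic core of ATP synthase, were lower (-2.91 and -2.45). The list's median turned to -0.12 with length offsets, with 8 higher and 14 lower. Histones, the short proteins that package DNA, were higher in all 11 cases (median 2.36). HTB1, for histone H2B, was at 3382 and 3394 CPM in monosomes against 238 and 248 CPM in mRNA (3.81 on the log2 scale, SE 0.15, adjusted p = 1.27e-42 in edgeR), and the centromeric variant CSE4 had 92 and 144 monosome counts against 1 and 0 in mRNA, a ratio of 19.8 (95% exact interval 3.53 to 787). With length offsets HTB1 kept 1.61, but only 5 histone genes were higher and 2 were lower.

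Ribosome biogenesis factors, cyclins and transcription factors had medians above 0 that stayed about as large or larger with length offsets. Those of cytosolic and mitochondrial ribosomal proteins, histones and proteasome subunits also stayed above 0, but fell to 0.36, 0.44, 0.16 and 0.10. Ribosome biogenesis factors, which assemble the subunits in the nucleolus, were higher in 59 of 103 cases and lower in 29 (median 0.84, and 0.83 with length offsets, 64 higher and 19 lower). RRP15, an assembly factor gene, had 266 and 346 monosome counts against 1 and 3 in mRNA (3.68). NOP10, for a small protein of the box H/ACA particles, was at 339 and 333 CPM in monosomes against 29.5 and 29.0 CPM in mRNA (3.52 on the log2 scale, SE 0.19, adjusted p = 1.74e-31 in edgeR), but at -0.04 with length offsets. The long genes UTP20 and PWP2, for proteins of the small subunit processome, were lower (-2.31 and -2.30). Of the 103, 89 were lower in monosomes than in polysomes and 6 higher.

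Cyclins, the unstable activators of cyclin-dependent kinases, were higher in 17 of 23 cases and lower in 2 (median 1.07, and 1.27 with length offsets). Against polysomes 17 were higher in monosomes and none was lower by edgeR's adjusted p. CTK2, for the cyclin of the C-terminal domain kinase, had 282 and 396 monosome counts against 3 and 2 in mRNA (3.50 on the log2 scale, SE 0.41, adjusted p = 7.96e-13 in edgeR), and BUR2 had 198 and 241 against 3 and 3 (2.62). The 2 lower members were CLN3, described below, and CLG1, at 117 and 123 CPM in monosomes, 39.8 and 38.2 CPM in polysomes and 165 and 170.3 CPM in mRNA (-0.47 on the log2 scale, SE 0.14, adjusted p = 0.00117 in edgeR), whose sign turned with library totals (0.29). CLG1 did not pass without mRNA replicate 1 (-0.39, edgeR adjusted p = 0.0616) or without mRNA replicate 2 (-0.35, edgeR adjusted p = 0.0731). With length offsets CLG1 did not pass either (-0.26, edgeR adjusted p = 0.0832). In these bulk extracts, an mRNA that is plentiful in few cells cannot be told apart from one that is scarce in all.

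Transcription factors were higher in 48 of 98 tested cases and lower in 19 (median 0.59, and 0.84 with length offsets, 55 higher and 15 lower). Over all tested genes 37.9% were higher and 34.8% lower, and with length offsets 1685 and 1822 of 5264. NRG2, a glucose repressor gene, had 492 and 622 monosome counts against 6 and 5 in mRNA (3.09 on the log2 scale, SE 0.31, adjusted p = 7.23e-16 in edgeR). HAP1, the haem-responsive activator, was at 108 and 125 CPM in monosomes against 838 and 882 CPM in mRNA (-2.88 on the log2 scale, SE 0.11, adjusted p = 2.15e-42 in edgeR), and OPI1, a repressor of phospholipid genes, was lower as well (-2.05). Proteasome subunits were higher in 19 of 33 cases and lower in 7 (median 0.59, and 0.10 with length offsets, 11 each way). RPN8 was at 212 and 189.5 CPM in monosomes against 37.3 and 34.8 CPM in mRNA (2.47 on the log2 scale, SE 0.20, adjusted p = 2.6e-21 in edgeR), and the long base subunit gene RPN1 was lower (-1.995). In polysomes proteasome subunits had a median of 1.24, and 27 of 33 were lower in monosomes than in polysomes, beside 33.5% of all genes.

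Messages whose leaders hold back the main reading frame did not move together. Among 28 such mRNAs with upstream frames that could be tested, 7 were higher on monosomes, 11 lower and 10 did not pass, with a median of -0.15 that became 0.62 with library totals. Over all tested genes 37.9% were higher and 34.8% lower, with a median of 0.13 that became 0.90, so the list lay near the background. GCN4, the activator of amino acid genes that upstream frames repress in fed cells, was at 79.1 and 90.2 CPM in monosomes, 22.6 and 17.8 CPM in polysomes and 255 and 223 CPM in mRNA. All 3 groups were apart. The monosome deficit was -1.50 (SE 0.13, edgeR adjusted p = 1.61e-18) and the polysome deficit -3.56. CPA1, with its arginine attenuator peptide, was at 71.98 and 68.0 CPM in monosomes, 70.6 and 77.5 CPM in polysomes and 194 and 161 CPM in mRNA (-1.35 on the log2 scale, SE 0.14, adjusted p = 6.87e-15 in edgeR), and its monosome and polysome levels differed by -0.08 (SE 0.10, edgeR adjusted p = 0.475). CLN3, a cyclin gene of G1 phase, was at 58.9 and 69.4 CPM in monosomes, 33.3 and 30.5 CPM in polysomes and 186 and 137 CPM in mRNA (-1.35 on the log2 scale, SE 0.15, adjusted p = 1.3e-13 in edgeR).

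HAP4, the respiratory activator gene, and YAP1, the oxidative stress activator gene, were higher on monosomes than in mRNA, each on few mRNA counts. HAP4 had 115 and 207 monosome counts and 5 and 3 mRNA counts (1.74 on the log2 scale, SE 0.45, adjusted p = 0.000426 in edgeR). YAP1 had 209 and 383 and 12 and 14 (0.92 on the log2 scale, SE 0.28, adjusted p = 0.00261 in edgeR), and its polysome value was higher still (1.68). Without mRNA replicate 1 YAP1 came to 0.76 and did not pass (edgeR adjusted p = 0.0651). The haem synthesis gene HEM3 (2.03) and RPC11, for a small subunit of RNA polymerase III (2.95, but 0.44 with length offsets), were the 2 highest of the 28 by the rule for named genes. Beside the 37.9% of all tested genes that were higher and 34.8% lower, natural targets of nonsense-mediated decay stood out in neither direction against mRNA. Of 16 such genes, targets of the pathway that destroys messages with early stops, 3 were higher and 3 lower (median -0.14). Against polysomes, 8 of the 16 were higher in monosomes and 1 was lower, beside 36.6% and 33.5% of all genes. Among these, ALR1, a magnesium transporter gene, was lower (-1.57) and MAK31 higher (2.72, and -0.17 with length offsets).

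Of the 3 genes that need a programmed frameshift, EST3 and ABP140 were higher on monosomes and OAZ1 did not pass. EST3, a telomerase subunit gene, had 282 and 359 monosome counts against 4 and 5 in mRNA (2.58 on the log2 scale, SE 0.36, adjusted p = 7.05e-10 in edgeR). ABP140, for an actin-binding tRNA methyltransferase, was at 72.9 and 68.3 CPM in monosomes, 217 and 209 CPM in polysomes and 21.7 and 42.6 CPM in mRNA (1.18 against mRNA). OAZ1, for ornithine decarboxylase antizyme, had 73 and 100 monosome and 4 and 3 mRNA counts (1.05 on the log2 scale, SE 0.52, adjusted p = 0.0632 in edgeR), and it passed with library totals (1.82), without a low-count filter (1.12, edgeR adjusted p = 0.0476) and with the libraries of the comparison alone (1.15, edgeR adjusted p = 0.0363). Of 12 telomerase and telomere genes, 5 were higher in monosomes than in polysomes and none was lower by edgeR's adjusted p, beside 36.6% and 33.5% of all genes. Against mRNA, EST3 was also the only one of the 12 higher and 4 were lower, beside 37.9% and 34.8% of all tested genes. These 4 were TEL1, a checkpoint kinase gene (-2.98), CDC13, for the telomere end-binding protein (-1.11), TBF1, for a factor that binds telomeric repeats (-1.08), and RIF1, for a regulator of telomere length (-0.90). Of the 4, TEL1 alone passed with library totals (-2.21), and with length offsets TEL1 and TBF1 did (-1.03 and -0.63). RIF1 did not pass without mRNA replicate 1 (-0.53, edgeR adjusted p = 0.306), and its sign turned with length offsets (0.55).

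Many genes that glucose represses had too few counts to test. Of 30 glucose-repressed genes 14 could be tested, with 10 lower on monosomes and none higher by edgeR's adjusted p (median -1.41, -2.36 in polysomes). GUT2, a glycerol phosphate dehydrogenase gene, was at 13.6 and 13.3 CPM in monosomes against 169 and 135 CPM in mRNA (-3.52 on the log2 scale, SE 0.18, adjusted p = 1.61e-33 in edgeR), and the invertase gene SUC2 was at 53.7 and 53.3 CPM against 329 and 277 CPM (-2.51). Of 59 meiosis and sporulation genes 21 could be tested, with 3 higher and 6 lower, and 13 were higher in monosomes than in polysomes. Over all tested genes 37.9% were higher and 34.8% lower against mRNA, and 36.6% were higher in monosomes than in polysomes. IME1, the master regulator of meiotic entry, had 143 and 249 monosome counts against 1 and 1 in mRNA, a ratio of 16.5 (95% exact interval 4.53 to 137).

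By the mRNA counts of the receptor genes and MF(ALPHA)1 the cells were of the a type, although the alpha-specific genes SAG1 and AFB1 also had counts. The a-specific receptor gene STE2 had 141 and 109 mRNA counts, whereas the alpha-specific receptor gene STE3 had 1 and 3 and MF(ALPHA)1 had 0 and 0. STE2 was at 161 and 159.7 CPM in monosomes, 37.3 and 40.9 CPM in polysomes and 219 and 211 CPM in mRNA, so it lay below its mRNA by less on monosomes (-0.42) than in polysomes (-2.46), with monosome over polysome at 2.04 (edgeR adjusted p = 5.35e-33). The monosome value of STE2 against mRNA turned to 0.34 with library totals, and did not pass without mRNA replicate 1 (-0.29, edgeR adjusted p = 0.149) or mRNA replicate 2 (-0.34, edgeR adjusted p = 0.0511). Of the 7 a-specific genes, 3 were higher on monosomes, MFA1 and MFA2 among them, and 3 were lower. The lower ones were BAR1, for the pheromone protease (-2.09), STE6, for the pheromone exporter (-1.41, but -0.40 with length offsets, edgeR adjusted p = 0.0508), and STE2. Against polysomes 6 of the 7 were higher in monosomes. Of 5 alpha-specific genes only SAG1, on 3 and 5 monosome and 14 and 7 mRNA counts, and AFB1, on 128 and 220 and 2 and 0, could be tested, the first lower and the second higher.

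Among tested genes, abundant mRNAs held fewer monosome footprints per fragment than rare ones. To keep the class and the ratio apart, genes were put into 5 equal classes by CPM per kb in one mRNA library and the ratio was taken to the other. With classes from replicate 1, the median of log2((monosome CPM + 1)/(mRNA CPM + 1)) was 0.90 in the rarest class, then 0.47, 0.22 and -0.29, and -0.89 in the most abundant. With the replicates swapped it was 1.02, 0.56, 0.30, -0.37 and -1.03. For polysomes the range was narrower, with 0.72, 0.44, 0.18, -0.18 and -0.39 from replicate 1 and 0.73, 0.52, 0.25, -0.25 and -0.48 from replicate 2. Genes of 600 to 2400 nt alone gave 0.96, 0.64, 0.19, -0.42 and -1.14 for monosomes, so the relation held within a narrower range of lengths. Rare mRNAs could pass the low-count filter through their footprints, so the rarest classes depend on it. Without the filter, over every gene with a length and a count in replicate 1, the medians were 0.57, 0.41, 0.20, -0.29 and -0.87 for monosomes.

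**Figure D5:**
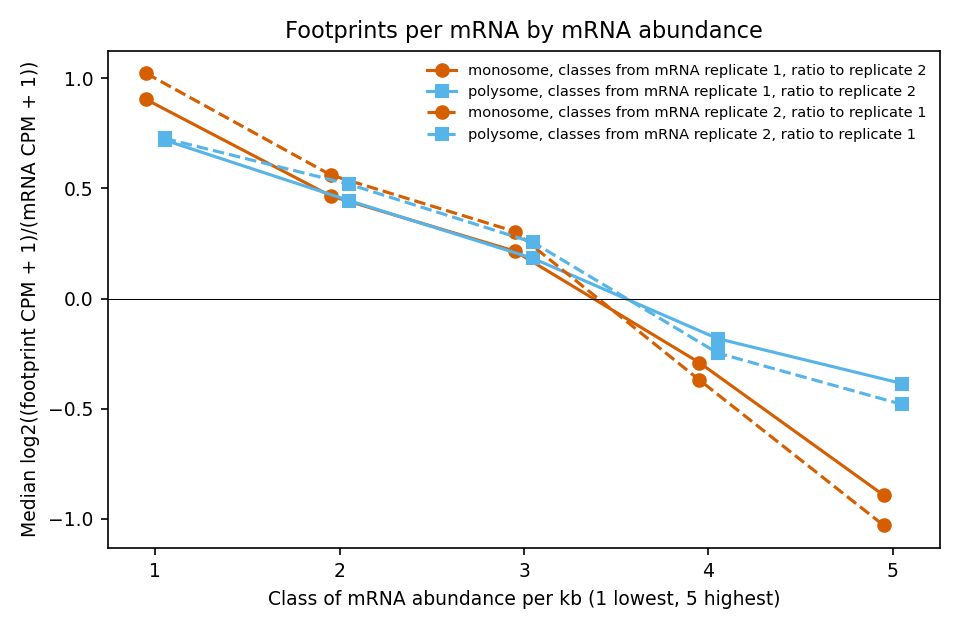
Median log2 ratio of footprint to mRNA level (y axis, CPM with 1 added) in 5 equal classes of mRNA abundance per kb (x axis, lowest to highest), for monosomes and polysomes, with the class from one mRNA library and the ratio to the other. Both lines fall, and the monosome line falls further, to -0.89 and -1.03 in the highest class against -0.39 and -0.48 for polysomes.

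The genes that led the monosome libraries made up a smaller share of them than of the mRNA libraries. The 6 genes with the highest monosome CPM, not divided by length, held 10.9% of monosome counts in each replicate, against 15.05% and 13.3% of mRNA counts. CCW12, for a short cell wall mannoprotein, led at 24624 and 26656 CPM in monosomes against 8372 and 7118 CPM in mRNA (1.73 on the log2 scale, SE 0.15, adjusted p = 1.42e-19 in edgeR), and with length offsets it turned to -0.44. YDR524C-B, a gene of 201 nt, was at 14866 and 14723 CPM against 571 and 515 CPM. The other 4 were the glycolytic genes FBA1 (-1.27), TDH3 (-1.75), CDC19 (-1.86) and PDC1, which led in monosome counts while lying below their mRNA share. TDH3, for example, was at 12706 and 12294 CPM in monosomes, 35114 and 32849 CPM in polysomes and 48462 and 35756 CPM in mRNA.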

How the data were processed

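Footprint and mRNA counts of yeast cultures were analysed. The authors deposited raw counts for each gene in each library, without normalization. The submitters' processing notes name TopHat, Bowtie, HTSeq and the sacCer3 build (R64). Versions, the strand setting and how reads with more than one match were counted are not given in the sources used here. Values of genes with close copies, such as ENO1, TDH3, PDC1 and HTB1, carry that uncertainty. Per the labels' protocols, footprints and mRNA fragments differ in size range, so their counts can differ in mappability and with gene length.

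Of 6692 identifiers, 6008 matched an R64 reference table by identifier, for names, positions and lengths, and 684 did not. Counts of 8 libraries in 4 groups were fitted together with edgeR 4.0.16 (R 4.3.3): TMM factors, filterByExpr (minimum count 10, minimum total 15), which kept 5336 genes, quasi-likelihood F test without a replicate block, and Benjamini-Hochberg adjustment over all genes tested with a threshold of 0.05. The SE is the absolute log2 fold change divided by the square root of F, and restates the test. CPM use tested-gene totals times TMM factors. DESeq2 1.42.0 was an alternative. Length offsets, added after the values were seen, are a loess trend (span 0.5) of each library's log2 CPM on log2 gene length (prior count 2, 5264 genes with a length). Where a group had no count, 3 counts per library gave a bound; with 1 to 3 counts the ratio has an exact Clopper-Pearson 95% interval. Intervals and bounds cover counting error only. The main fit was tested on simulated data in which few genes changed, in monosomes alone. That does not test the fit or its scaling where most genes differ, as here. Python 3.11.15 with numpy 2.4.6, pandas 2.3.3, scipy 1.17.1 and matplotlib 3.10.9 made tables and figures.

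The comparison, the gene lists and the rule for named genes were chosen with earlier results of these data known. The rule took the 12 largest fold changes each way among matched genes past the threshold with a mean of at least 50 counts and groups that do not overlap, the 6 genes with most monosome CPM, the 3 nearest to 0 among the 200 with most monosome counts, up to 2 members each way per list, the 2 largest unmatched identifiers each way, and 9 genes always (HAC1, HAP4, GCN4, CLN3, YAP1, CPA1, ABP140, OAZ1 and EST3). The ranking among genes with at least 10 counts per library was added after the values were seen. It kept the conditions of the rule and left out genes that overlap another gene. Other named genes such as PMA1, PMT1, COX3, YDR445C, STE2, TPI1 and EFT1 were also added after the values were seen. Not every gene that the rule takes is described, and 1 item is not reported here. Lists were described by counts and medians, with no test. Of the list of non-coding RNAs no identifier was counted in the table. Start-codon context, upstream start codons and protein sequences were not analysed here. The 2 replicates of a group differed by more than sampling noise, with a chi-square per degree of freedom of 5.42 in monosomes and 4.64 in mRNA, and none was treated as a copy.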

Additional observations from a re-analysis of the deposited data

How the results depend on the processing

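Counts of genes called moved by over 1.5 times under library totals only, to 3045 higher and 1214 lower for monosome against mRNA, and to 3030 higher and 867 lower for monosome against polysome. Under the other alternatives run (RLE size factors, stricter or no low-count filter, matched identifiers alone, libraries of the comparison alone, DESeq2 and length offsets), monosome against mRNA stayed between 1685 and 2138 higher and 1755 and 1989 lower. Leaving out 1 library at a time gave 1771 to 1933 higher and 1509 to 1791 lower for monosome against mRNA, 1885 to 2006 and 1466 to 1729 for polysome against mRNA, and 1607 to 1765 and 1535 to 1642 for monosome against polysome; a lone library is then assumed to vary like the other groups. With the replicate number as a block, 2025 genes were higher and 1858 lower for monosome against mRNA; the labels do not say that equal numbers pair the libraries, and deviations of same-numbered monosome and mRNA libraries correlated at r = 0.0169 across genes. Signs reversed as follows; beyond scaling and length the cause was not tested. With library totals, list medians came to 0.35 for translation factors, 0.62 for upstream open reading frames, 0.63 for decay targets, 0.24 for alpha-specific genes and 0.40 for telomere genes, the length classes beyond 1200 and 2400 nt to 0.41 and 0.048, and CLG1, STE2 and TPI1 to 0.29, 0.34 and 0.38. With length offsets, list medians came to -0.12 for oxidative phosphorylation, 0.033 for upstream open reading frames, 0.14 for decay targets, -0.28 for a-specific genes and 0.20 for telomere genes, and CCW12, CWP2, MAK31, NOP10, RIF1, RPL40A, RPL8B and SUI1 to -0.44, -0.43, -0.17, -0.035, 0.55, -0.74, -0.90 and -0.030. Leaving out 1 library at a time, the median of decay targets ran from -0.16 to 0.13. The alpha-specific median, over 2 genes, was 3.78 with the stricter filter and ran from -0.97 to 2.70 when 1 library was left out. Genes below about 10 mRNA counts are limited by the depth of the mRNA libraries, where 970 tested genes had 1 to 9 counts in both together.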
